A study of Mus musculus with 2 samples.

Results

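Immediate early genes were followed in single cells of pancreatic tumours from EL1 and WTg mice, both 6 weeks old. The 10 genes were Fos, Fosb, Jun, Junb, Atf3, Egr1, Egr2, Egr4, Klf2 and Socs3, taken by symbol out of the 32285 genes listed in each of the 2 libraries. EL1 is an FVB/N line in which SV40 Large T antigen and, separately, luciferase are driven by the rodent elastase I promoter, which is active in acinar cells. WTg mice are EL1 mice crossed with mice that carry the Mettl3 open reading frame, a writer of N6-methyladenosine on RNA, under the ubiquitous CAG promoter. Both groups therefore carry the T antigen and luciferase, and the strain labels are EL1-Luc/EL1-Tag and EL1-Luc/EL1-Tag x CAG-Mettl3. The transgenic Mettl3 line was established in C57BL/6, so strain background and transgene cannot be told apart. Each group has 1 library and the number of animals behind it is not stated, so no difference between the groups was tested and no value has a replicate error.

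Immediate early genes are transcribed within minutes of a stimulus without new protein synthesis, because the factors that switch them on, such as SRF with its ELK partners, CREB and STAT3, are already in the cell and need only be activated. Fos, Fosb, Jun, Junb and Atf3 encode bZIP subunits that dimerise into AP-1 and related complexes. Egr1, Egr2 and Egr4 encode zinc finger factors of the EGR family, and Klf2 a Krüppel-like zinc finger factor. Socs3 is no transcription factor but a suppressor of cytokine signalling that shuts off JAK-STAT3 receptors, so the usual name for the group does not cover it. Such genes are also known to respond to the dissociation of tissue. Both tumours were digested with collagenase and DNase, no undissociated sample was analysed here, and the part of the digestion in the levels below was not tested.

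The promoters of the members show which of them carry the short CREB and ATF half-site that this gene class is known for. In the 9 members whose promoters were searched (250 bases before to 50 bases after the RefSeq start, both strands, all but Egr1), the letters TGACGT occurred in 3, namely Fos, Egr4 and Atf3, against 7.59% of the promoters of all 27025 genes. Fos had 1 match at positions -66 to -61 from the start, Atf3 had 1 at -8 to -3, and Egr4 had 2, at -178 to -173 and at -110 to -105. For Atf3 the RefSeq start used lies inside the annotated gene (chr1:191170296-191218039, minus strand), whose 5′ end is farther upstream and was not searched. The 200 bases before the start of these 3 genes are given below 5′ to 3′ on the strand of the gene (RefSeq, GRCm38.p6), in lower case with the matches to TGACGT, or to its reverse complement ACGTCA, in capitals.
Fos (chr12:85473690-85473889, plus strand): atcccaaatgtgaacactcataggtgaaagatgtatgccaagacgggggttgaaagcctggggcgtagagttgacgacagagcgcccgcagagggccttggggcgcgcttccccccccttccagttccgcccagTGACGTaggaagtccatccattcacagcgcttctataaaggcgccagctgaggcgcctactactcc
Egr4 (chr6:85513590-85513789, minus strand): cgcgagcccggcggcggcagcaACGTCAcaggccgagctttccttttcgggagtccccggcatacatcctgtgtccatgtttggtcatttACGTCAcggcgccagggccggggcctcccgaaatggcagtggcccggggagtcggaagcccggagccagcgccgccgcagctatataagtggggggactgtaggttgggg
Atf3 (chr1:191183334-191183533, minus strand): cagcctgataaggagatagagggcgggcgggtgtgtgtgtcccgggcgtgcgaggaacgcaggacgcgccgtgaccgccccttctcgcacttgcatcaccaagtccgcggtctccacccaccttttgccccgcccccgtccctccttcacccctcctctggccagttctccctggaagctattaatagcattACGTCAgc

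The full palindrome TGACGTCA, which contains the half-site, was in none of the 9 windows and in 1.85% of all promoters. The serum response element (CArG box) was in none of the 9 windows and in 1.59% of all promoters. Elements outside these windows, and those of Egr1, were not searched for. The AP-1 site TGANTCA was likewise in none of the 9, against 7.92%. A STAT-type site TTCNNNGAA was found in 1 of the 9, Socs3, at -154 to -146, and in 8.42% of all promoters. The EGR-type site GCGNGGGCG was found in Fosb, Klf2 and Socs3, against 5.53% of all. Such matches describe letters in a window and no binding was measured.

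The filter on cells asked for 500 genes or more, 1000 UMIs (counted RNA molecules) or more and no more than 20% mitochondrial UMIs. This left 1113 of 1621 barcodes of EL1 and 905 of 1488 of WTg, with medians of 26543 and 34836 UMIs. Mettl3 was at 15.1 counts-per-million (CPM, the UMIs of a gene scaled to 1000000 UMIs of the same cells) in EL1 against 66.7 CPM in WTg, in the direction of the labels. The labels call the cells epithelial. By marker genes, macrophage-, neutrophil-, T or NK-, B- and erythroid-like clusters were also present, and a few cells (2 of EL1 and 11 of WTg) carried 5 or more of 10 endothelial or of 10 fibroblast markers. All other cells, 1044 of EL1 (93.8%) and 826 of WTg (91.3%), are called epithelial below. No barcode was shared between the libraries among kept cells. Clusters were made without the members and related genes and without a correction between libraries. Most epithelial clusters hold almost only 1 library. Intervals are exact 95% intervals and cover counting error only. A 2-fold difference stands in for a test, and its share among all genes is given beside each count of members.

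Over the epithelial cells the members together made up 3826 CPM (3806 to 3846) of the EL1 UMIs against 3152 CPM (3132 to 3172) of the WTg UMIs. As log2 of WTg over EL1 this is -0.28 (-0.29 to -0.27). Fos, Klf2 and Socs3 were the members with the lowest ratios, Egr1 and Jun lay near 0, and Egr4 alone was higher in WTg by more than its counting interval. None of the 10 members passed a 2-fold difference in either direction, in epithelial cells or in all kept cells. Among all genes, 7.17% were at least 2-fold higher and 8.1% at least 2-fold lower in WTg in epithelial cells, and 10.1% and 6.9% over all kept cells. The median gene also lay below 0, at -0.18 in epithelial cells, and 6 members (Fos, Fosb, Junb, Atf3, Klf2, Socs3) were below that median while 4 (Jun, Egr1, Egr2, Egr4) were above it.

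Fos (chr12:85473890-85477273), the partner that gives AP-1 much of its transactivating strength, was at 377 CPM (371 to 383) in EL1 epithelial cells against 215 CPM (210 to 220) in those of WTg. Its log2 ratio came to -0.81 (-0.85 to -0.77). Fosb (chr7:19302696-19310051), its close relative, was at 261 CPM in EL1 against 209 CPM in WTg, with a ratio of -0.32. Fosb was thus lower in WTg than in EL1, by less than Fos. Jun (chr4:95049034-95052222), the subunit that can pair with itself or with a Fos protein, was one of the most abundant members at 880 CPM (870 to 889) in EL1 against 821 CPM (811 to 831) in WTg, with a ratio of -0.10 that turned to 0.0798 under TMM scaling (edgeR), an alternative that raised all ratios by 0.18. Junb (chr8:84974484-84978718), often a weaker activator than Jun, was at 655 CPM in EL1 against 474 CPM in WTg, a ratio of -0.47. Atf3 (chr1:191170296-191218039), a stress-induced repressor of the ATF family, was at 393 CPM in EL1 against 303 CPM in WTg, a ratio of -0.38. All coordinates are GENCODE M21 on GRCm38. Jun overlaps the antisense gene Junos, Junb overlaps Prdx2 and Atf3 overlaps the small RNA gene Gm24748, each on the opposite strand from the member.

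Egr1, a factor induced by growth factors and by strain on the cell, was at 887 CPM (878 to 897) in EL1 against 889 CPM (878 to 899) in WTg. Its log2 ratio was 0.0027 (-0.020 to 0.026), the closest to 0 of the 10. Egr2 (chr10:67535475-67542188), known from myelinating Schwann cells and lymphocytes, was low at 23.2 CPM (21.7 to 24.8) in EL1 against 21.8 CPM (20.2 to 23.5) in WTg, and these intervals overlap. Egr4 (chr6:85511121-85513589), an activity-induced gene of neurons, was at 25.6 CPM (24.0 to 27.3) in EL1 against 33.5 CPM (31.5 to 35.5) in WTg, a ratio of 0.38 (0.26 to 0.51). This direction rested on few cells. A single WTg cell held 364 of the 1054 Egr4 UMIs (34.5%) and a single EL1 cell held 181 of 956 (18.9%). Without these 2 cells the ratio was 0.08 (-0.07 to 0.23), and without the top 5% of cells by Egr4 UMIs it turned to -0.52.

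Klf2 (chr8:72319033-72321656), a gene of quiescent endothelium and T cells, was at 209 CPM (204 to 214) in EL1 against 114 CPM (111 to 118) in WTg, the lowest ratio of the 10 at -0.87 (-0.93 to -0.81). Socs3 (chr11:117966079-117970047) was at 116 CPM (112 to 119) in EL1 against 71.7 CPM (68.7 to 74.7) in WTg, with a ratio of -0.69. In the same epithelial cells the 10 endothelial markers summed to 24.6 CPM in EL1 against 20.8 CPM in WTg. The T or NK list summed to 189 and 175 CPM. The 12 macrophage markers summed to 42.0 CPM in EL1 against 117 CPM in WTg. Whether RNA of such cells plays a part in the member levels was not tested. The order of levels in EL1 was Egr1, Jun, Junb, Atf3, Fos, Fosb, Klf2, Socs3, Egr4 and Egr2, where each molecule is counted once at its 3′ end and no length is divided out. In that order Egr1 and Jun had overlapping intervals in EL1, as did Egr4 and Egr2. In WTg the order was the same, and of the neighbours in it only Fos (210 to 220) and Fosb (204 to 214) had overlapping intervals there.

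**Figure D1:**
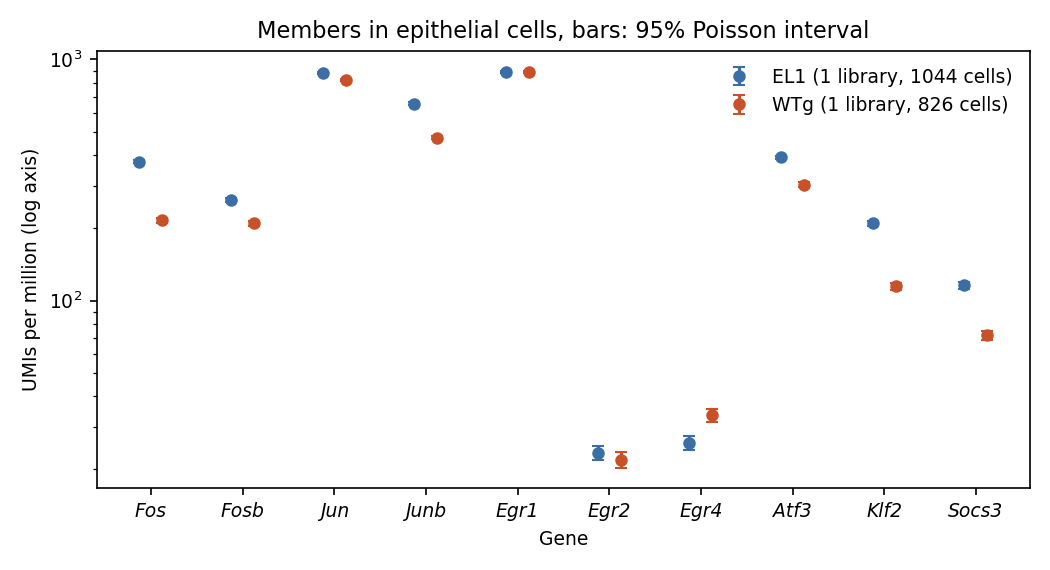
Level of each member in epithelial cells, in CPM on a log axis, for EL1 (1044 cells) and WTg (826 cells), with 1 library per group and bars for the 95% Poisson interval of the summed count. Fos and Klf2 show the widest gaps between the libraries, Egr1 lies at 887 and 889, and Egr4 is the only member with a clearly higher point in WTg, a direction that turned without its top 5% of cells.

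Fos was compared by cell group. In the neuroendocrine-like cells, which express secretory granule genes such as Chga and Chgb, Fos was at 470 CPM (455 to 485) in 267 EL1 cells against 163 CPM (154 to 173) in 184 WTg cells, a log2 ratio of -1.52. Egr1 was lower there too, with 1168 CPM in EL1 against 742 CPM in WTg (-0.66), as was Socs3 (156 and 80.6 CPM, -0.96). Egr4 was at 69.1 CPM in EL1 and 103 CPM in WTg (0.58), yet 1 cell of each library, both in cluster 2, held 181 and 364 of its UMIs. Without these 2 cells the levels were 47.5 and 53.2 CPM, with a log2 ratio of 0.16 (-0.05 to 0.37). These EL1 cells are mostly cluster 0 (242 cells) and these WTg cells mostly cluster 2 (183 cells), so the comparison is also one between clusters. Within cluster 2 itself, Fos was at 762 CPM in 25 EL1 cells against 164 CPM in 183 WTg cells. This gap lay in few cells: 4 of the 25 and 5 of the 183 were over 10000 CPM of the summed members, and without them Fos was at 59.4 CPM (41.4 to 82.7) and 53.0 CPM (47.7 to 58.6).

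The acinar-like cells express digestive enzyme genes such as Cela3b and Try4, but not alone. The acinar marker list summed to 173808 CPM in those of EL1 and 192668 CPM in those of WTg. It was at 128478 and 143550 CPM over all epithelial cells, and at 66500 and 77907 CPM in neuroendocrine-like cells. In the acinar-like cells Fos was at 76.4 CPM (49 UMIs) in 41 EL1 cells against 254 CPM in 368 WTg cells. That is a ratio of 1.73 (1.33 to 2.17). The summed members were at 2497 CPM in EL1 against 3148 CPM in WTg, a ratio of 0.33. Of the 41 EL1 cells, 32 lie in cluster 9, in which the cells are shallow. Without that cluster 9 EL1 and 308 WTg cells remained, with Fos at 88.1 and 260 CPM and a ratio of 1.56, and Egr1 at 934 and 915 CPM. The direction depends on which clusters count as acinar-like. The EL1 cluster 3 (192 cells, Fos at 756 CPM) came closest to the acinar class, with Prss2 and Try5 among its leading genes, but had 2 markers where a name needed 3. With it, the EL1 cells were at 699 CPM of Fos and the log2 ratio turned to -1.46 (-1.52 to -1.40). Of the 192 cells of cluster 3, 28 were over 10000 CPM of the summed members.

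Over the epithelial clusters with a value, 9 in EL1 and 7 in WTg, the summed members ranged from 1891 CPM (cluster 9) to 8580 CPM (cluster 2) in EL1. In WTg they ranged from 499 CPM (cluster 9) to 6258 CPM (cluster 5). Both upper ends include a few cells over 10000 CPM, 4 of 25 in cluster 2 of EL1 and 6 of 94 in cluster 5 of WTg. The median cell was at 2610 CPM in that EL1 cluster. In that WTg cluster it was at 1054 CPM, below the median of all WTg epithelial cells (1738 CPM). Cluster 5 is shallow, with a median of 2062 UMIs per cell, and is led by Malat1. Klf2 and Jun varied least over the EL1 clusters, 3.20-fold and 4.04-fold. Fos varied 14.5-fold, from 52.4 to 762 CPM. Egr4 went from 2.44 CPM in cluster 3 to 277 CPM in cluster 2, but without the single cell with the most Egr4 cluster 2 was at 22.9 CPM (15 UMIs). Egr2 had no UMI in cluster 9 of EL1 and its fold is not defined. The unnamed cluster 3, found in EL1 alone with 192 cells and led by S100g, had the second highest sum (5002 CPM), with Fos at 756, Atf3 at 636 and Klf2 at 360 CPM. These pooled levels include 28 cells over 10000 CPM of the summed members. The median cell of cluster 3 was at 2111 CPM, below the median of all EL1 epithelial cells (2399 CPM). Without this cluster the Fos ratio of all epithelial cells moved from -0.81 to -0.43 and that of the summed members from -0.28 to -0.17.

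**Figure D2:**
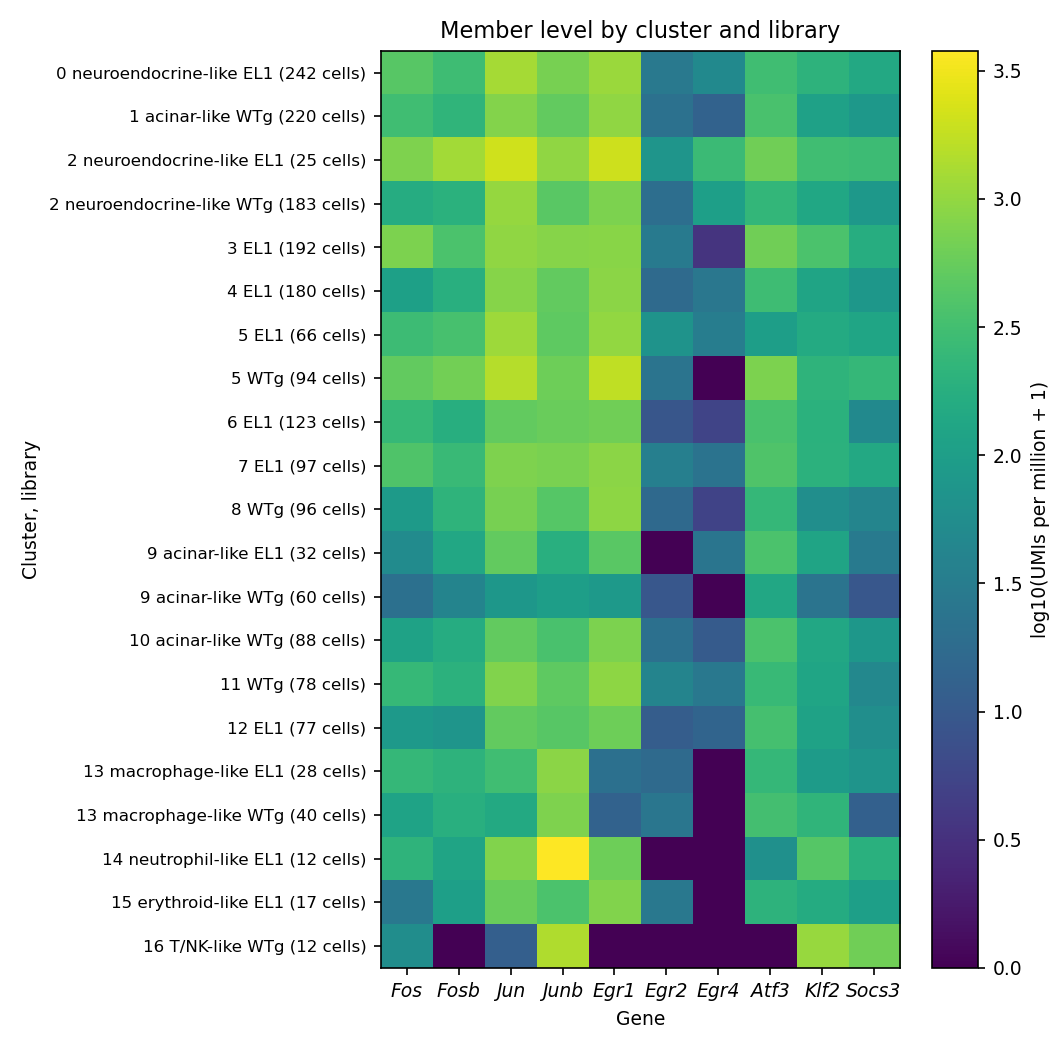
Level of each member in every cluster with at least 10 cells of a library, as the log10 of CPM plus 1, with clusters and libraries down the side and genes across. Egr1 and Jun are bright over most epithelial clusters, but in cluster 9 of WTg they are at only 85.0 and 76.5 CPM. Both are dark in T/NK-like cells. In macrophage-like cells Egr1 is dark and Jun is dimmer than in most epithelial clusters, at 301 CPM in EL1 and 148 CPM in WTg. Junb stays bright in the immune clusters, and Egr4 is dark in all immune clusters.

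Immune cells had another mix of the same genes. In macrophage-like cells (28 of EL1 and 40 of WTg), Egr1 was nearly absent, at 20.1 CPM from 10 UMIs in EL1 and 12.4 CPM from 12 UMIs in WTg. Against epithelial cells of the same library, that is a log2 ratio of -5.47 (-6.53 to -4.59) in EL1 and -6.17 (-7.12 to -5.36) in WTg. Egr4 had no UMI in macrophage-like cells of either library. With 3 counts per library in place of 0, the floor was 6.02 CPM in EL1 against 3.09 CPM in WTg. At that floor Egr4 was 4.26-fold and 10.8-fold lower than in epithelial cells. The exact intervals allow log2 ratios up to -1.79 in EL1 and -3.14 in WTg. Without the highest Egr4 cell of each library, the epithelial levels were 20.8 and 21.9 CPM. Jun was lower in macrophage-like cells as well, by ratios of -1.55 in EL1 and -2.47 in WTg. Junb had values of 917 and 757 CPM there, above the epithelial 655 and 474 CPM by less than 2-fold.

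In all, 4 of the 10 members were at least 2-fold lower in macrophage-like than in epithelial cells in each library, against 18.9% of all genes in EL1 and 22% in WTg. No member was 2-fold higher, where 35.4% of all genes in EL1 and 31.2% in WTg were. Jun, Egr1 and Egr4 were among the 4 in both libraries. The fourth was Klf2 in EL1 (-1.18) and Socs3 in WTg (-2.66). Klf2 was at 92.3 CPM in EL1 macrophage-like cells and 221 CPM in WTg ones, while Socs3 was at 70.2 CPM and 11.3 CPM (35 and 11 UMIs). The dendritic list was at 44.1 CPM in the macrophage-like cells of EL1 and 1577 CPM in those of WTg. Whether that plays a part in the Klf2 and Socs3 values was not tested.

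The lymphoid clusters were small, with 10 T or NK- and B-like cells of EL1 and 20 of WTg. Klf2, which holds naive T cells in quiescence, was at 374 CPM in EL1 against 1039 CPM in WTg (26 and 127 UMIs). Junb was at 907 and 1382 CPM, and Socs3 at 417 and 466 CPM. Jun had 2 and 1 UMIs and Egr1 had 4 and 1 UMIs, so both lay at the edge of detection. Neutrophil-like cells, 19 over both libraries, had Junb at 3784 CPM (124 UMIs) in EL1 against 2393 CPM (44 UMIs) in WTg, the highest Junb level of any named group.

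Shares of cells with a UMI depend on depth, so every cell was thinned to 2000 UMIs, which kept 997 epithelial cells of EL1 and 764 of WTg. Jun was detected in 66.6% of EL1 and 61.0% of WTg cells, Egr1 in 63.3% and 59.2%, and Junb in 56.0% and 48.3%. Fos was found in only 17.8% (15.4 to 20.3) of EL1 cells and 14.0% of WTg cells. Although Fos and Atf3 had like levels in EL1, Atf3 was found in 33.2% of those cells and 23.3% of WTg cells. Klf2 was found in 22.2% and 13.7%, Socs3 in 14.0% and 8.38%, and Fosb in 24.3% and 23.7%. Egr2 (4.41% and 3.27%) and Egr4 (2.71% and 1.96%) were found in few cells. For Egr4 these were 27 and 15 cells, with overlapping intervals (1.79 to 3.92 and 1.10 to 3.22). Thinned to 5000 UMIs, Egr4 was found in 4.97% and 5.04%, Egr2 in 7.72% and 8.36%, and Egr1 in 79.1% and 80.4%. The other members kept a lower share in WTg at that depth. Without thinning the shares were higher, for instance 62.2% and 56.1% for Fos and 18.0% and 14.5% for Egr4.

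Macrophage-like cells express several of the members and so are no blank for them, but they were low in Egr1. Thinned in the same way, Egr1 was found in 0 of 25 EL1 and 2 of 35 WTg macrophage-like cells. Free RNA was looked at in barcodes of red blood cells. Haemoglobin-rich barcodes (at least 50% haemoglobin UMIs, 41 of EL1 and 35 of WTg) held 4 member UMIs in each library, among 4458 and 5580 UMIs of other genes. That corresponds to 897 CPM (244 to 2297) and 717 CPM (195 to 1835), intervals that lie below the epithelial sums. For single members the counts were too few to bound the background, since a count of 0 in the EL1 barcodes allows up to 827 CPM, above the epithelial Fos, Klf2 or Socs3. The 17 erythroid-like cells kept in EL1 had 2363 CPM (1902 to 2901) of the summed members, together with 11865 CPM of the epithelial marker list.

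Member RNA was unevenly spread over cells. The median epithelial cell had 2399 CPM of the summed members in EL1 and 1738 CPM in WTg, and the highest had 72817 and 47833 CPM. The top 5% of cells by member UMIs held 36.8% of all member UMIs in EL1 and 40.4% in WTg. Genes differed widely in this. For Fos the top 5% held 79.1% of the UMIs in EL1 and 76.9% in WTg. For Jun it was 30.3% and 36.9%, and for Egr1 28.1% and 32.9%. A level of 10000 CPM was reached by 64 EL1 cells (6.13%, 4.75 to 7.76) and 38 WTg cells (4.60%, 3.28 to 6.26), with 29 and 18 cells between 8000 and 12000 CPM, so the 10000 CPM mark cuts a continuous range. Cells below it held 65.2% of the member UMIs in EL1 and 65.7% in WTg. Without the cells above it, 2618 CPM remained in EL1 and 2161 CPM in WTg, and Fos fell from 377 to 94.9 CPM and from 215 to 64.6 CPM.

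**Figure D3:**
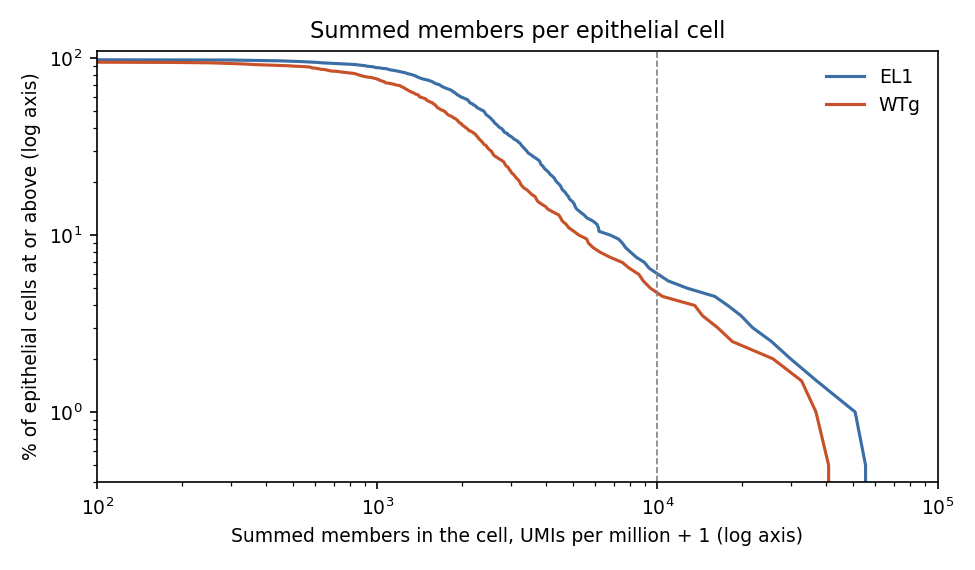
Share of epithelial cells (per cent, log axis) at or above a given level of the summed members (CPM plus 1, log axis), for EL1 in blue and WTg in red, with a dashed line at 10000. The WTg curve lies left of the EL1 curve over most of the range, and both fall without a step at the dashed line.

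The cells over 10000 CPM were found in many clusters. In EL1, cluster 3 held 28 of the 64, which is 14.6% (9.91 to 20.4) of its cells, and cluster 0 held 15. In WTg, cluster 1 held 14 of the 38. When the members and related genes were kept in the clustering, 66 cells (39 of EL1 and 27 of WTg) formed a cluster of their own at 28156 CPM. Its 10 leading genes were Fos, Egr4, Fosb, Klf2, Atf3, Hspa1a, Socs3, Hspa1b, Irf1 and Egr2, and its cells came from 10 of the clusters used here. Since the members and heat shock genes helped to form that cluster, their place among its leading genes is no result. Cells over 20000 CPM had medians of 23765 UMIs and 4.17% mitochondrial UMIs in EL1, and 38699 UMIs and 3.42% in WTg, against 27993 and 36121 UMIs in all epithelial cells.

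The members differed in how far they rose with one another. Each member was compared between the top 5% and the middle 50% of cells, ranked by the other 9 members so that it did not rank itself. Fos was 95.3-fold higher in EL1 and 69.4-fold in WTg, and Egr4 was 44.8-fold and 58.8-fold higher. The Egr4 folds rest on few cells, as only 24.5% and 28.6% of the top cells held a UMI of it. A single EL1 cell held 181 of the 551 Egr4 UMIs of the top 5%, and a single WTg cell held 364 of 673. Fosb, Klf2, Socs3, Atf3 and Egr2 lay between 14.1-fold and 30.2-fold. Jun (8.09-fold and 9.19-fold), Junb (7.34-fold and 9.14-fold) and Egr1 (5.48-fold and 6.996-fold), the 3 most abundant members, rose least in both libraries. As a share of all member UMIs, Fos went from 2.01% in cells under 1000 CPM to 22.7% in cells over 20000 CPM in EL1, while Jun went from 33.7% to 18.0%. In WTg, Fos went from 2.61% to 15.8% and Jun from 34.1% to 22.4%.

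Members were found together. Among thinned cells, 57.9% (54.7 to 61.0) of EL1 and 43.6% (40.0 to 47.2) of WTg cells had a UMI of at least 3 members. No member was found in 4.21% and 9.42%, at least 6 members in 10.0% and 7.07%, and all 10 in 2 cells of each library. For each of the 45 pairs, in both libraries, more cells held both members than the product of the single shares gives. The median factor was 1.42 in EL1 and 1.52 in WTg. No such count over pairs of other genes is given beside it, and cells were pooled over clusters that differ in member level. Fos and Fosb were both found in 9.63% of EL1 cells against a product of 4.31%, and in 7.98% of WTg cells against 3.32%. For Fos and Jun, which pair as proteins, it was 13.5% against 11.8% and 10.9% against 8.54%. The highest factor was that of Egr2 and Egr4, from 4 and 2 cells. In macrophage-like cells at least 3 members were found in 40.0% of EL1 and 34.3% of WTg cells, and 6 or more in none of the 25 and 35.

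**Figure D4:**
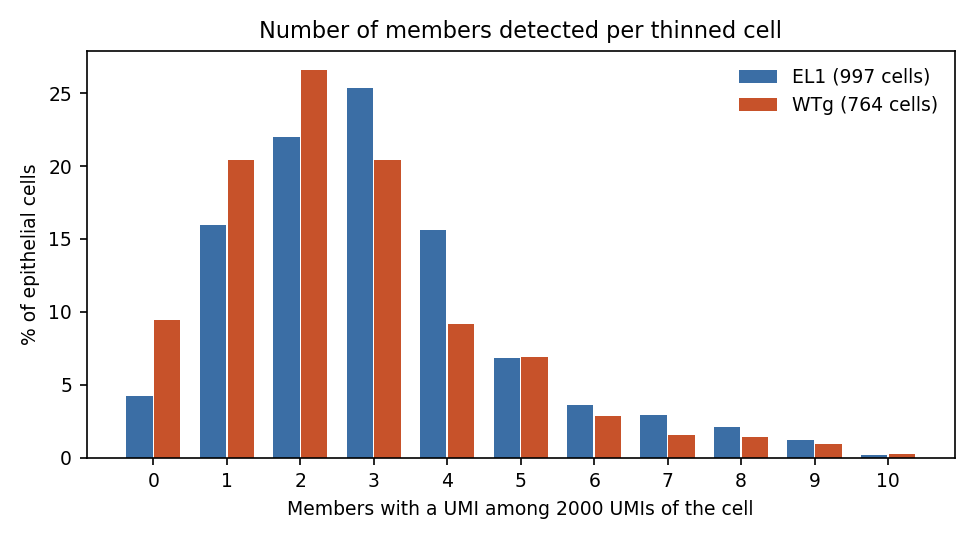
Share of thinned epithelial cells (per cent) by the number of members with a UMI among 2000 UMIs of the cell, for EL1 (997 cells) and WTg (764 cells). EL1 peaks at 3 members and WTg at 2, and both have a tail that reaches all 10.

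Across cells of a library, log-normalised levels of the 45 pairs had a median Pearson r of 0.40 in EL1 (1044 cells) and 0.46 in WTg (826 cells). In EL1 they ran from 0.16 for Fos and Egr4 to 0.68 for Fos and Fosb. In WTg they ran from 0.18 for Egr4 and Socs3 to 0.65 for Fos and Atf3. Among cells below 10000 CPM the medians were 0.19 and 0.22, and Junb with Egr1 was the closest pair in both (0.43 and 0.50). Cells of one library share handling and differ in depth, and these values are descriptions. No median over pairs of other genes is given beside them.

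Among 11126 genes ranked by the lower of their correlations in the 2 libraries, Ier2, another immediate early gene, followed the summed members most closely of those outside the 10 (r of 0.58 in EL1 and 0.72 in WTg). It was followed by Btg2, an antiproliferative gene (0.49 and 0.64), Zfp36, which destabilises AU-rich mRNA (0.48 and 0.57), and Jund, the third Jun gene (0.43 and 0.50). Among the closest outside all immediate early lists were Irs2, an insulin receptor substrate (0.36 and 0.38), and Irf1, an interferon response factor (0.36 and 0.40). Of the single members, 9 had at least 2 other members among their 3 nearest genes, and for Egr1 the nearest gene was Ier2. For Egr4 the nearest were Egr2, Egr3 and Npas4, a neuronal activity gene, at an r of only 0.26 to 0.27 in EL1.

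Genes of the same response were compared between the 64 and 38 cells over 10000 CPM and the other epithelial cells. Since the members chose these cells, their own difference is no result. Over all genes with enough counts, 858 of 13608 (6.31%) were at least 2-fold higher in both libraries and 84 (0.617%) at least 2-fold lower in both. Of the 13 heat shock genes 7 were (Hspa1a, Hspa1b, Hspb1, Hsph1, Dnajb1, Hspa8, Hsp90aa1), with a median log2 difference of 1.02 in EL1 and 1.14 in WTg, against 0.15 and 0.21 for all genes. Hspa1a, an inducible Hsp70 chaperone, went from 9.72 to 378 CPM in EL1 and from 4.24 to 281 CPM in WTg. Irf1 went from 13.5 to 159 CPM and from 9.61 to 243 CPM.

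Of 31 other immediate early genes measured, 9 were 2-fold higher in both, among them Ier2 (398 to 1825 CPM in EL1, 309 to 2534 CPM in WTg) and Npas4 (24.3 to 123 CPM, 23.8 to 296 CPM). Of 24 signal feedback genes, which damp kinase and cytokine signals, 8 were higher, for instance the MAP kinase phosphatase Dusp1 (31.2 to 183 CPM, 34.6 to 147 CPM), and Dusp2 was lower, from 3 and 2 UMIs in the high cells. Of the 8 genes of the integrated stress response 4 were higher, with Ddit3 at 25.2 and 119 CPM in EL1 and at 50.8 and 218 CPM in WTg. In the Egr and Klf families 2 of 11 were higher, Klf4 and Klf6, and among 13 AP-1 and Maf partners only Jund was, while Fosl1 was lower. Of 23 SRF, CREB and kinase genes 1 was higher (Mrtfa, from 6 and 8 UMIs in the high cells), and of 9 STAT3 pathway genes none was higher and 1, Osmr, was lower (3 and 1 UMIs in the high cells). The epithelial marker list was at 7859 CPM in the high cells and 11776 CPM in the others in EL1, and at 8296 and 11831 CPM in WTg. The macrophage list was lower in the high cells, with 23.0 against 43.0 CPM in EL1 and 45.3 against 120 CPM in WTg. The fibroblast list was higher in them, with 25.8 against 8.81 CPM in EL1 and 18.9 against 7.16 CPM in WTg. The endothelial list was higher as well, with 36.4 against 24.1 CPM in EL1 and 24.2 against 20.7 CPM in WTg. Whether RNA of such cells plays a part in the high cells was not tested.

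**Figure D5:**
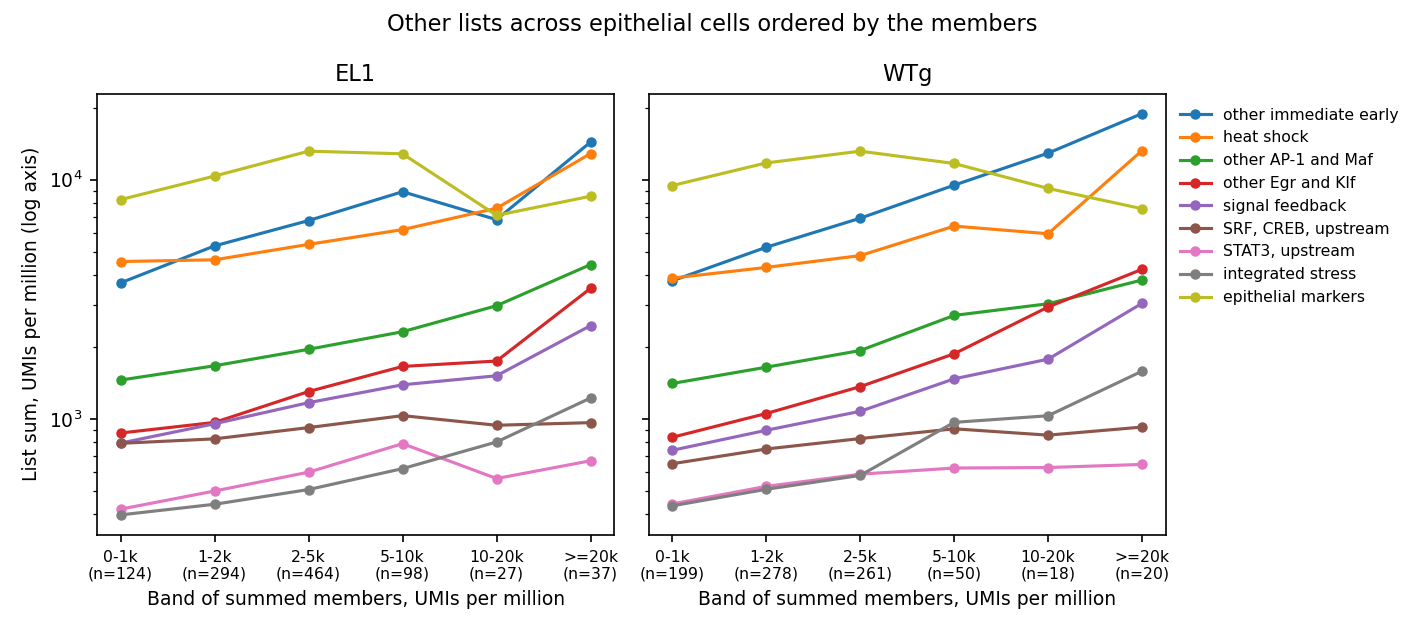
Summed level of other gene lists (CPM, log axis) in epithelial cells put in bands by the summed members, from under 1000 to 20000 and over, with EL1 on the left and WTg on the right and the number of cells under each band. Heat shock genes go from 4551 to 12842 in EL1 and from 3879 to 13230 in WTg between the outer bands, while the SRF and CREB list goes from 792 to 967 and from 651 to 926.

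Between the libraries most of these lists held few genes past 2-fold. Counts are given over all kept cells (10.1% of all genes higher in WTg, 6.9% lower, median gene at -0.14) and then over epithelial cells (7.17% higher, 8.1% lower, median gene at -0.18), because WTg holds more macrophage-like and stromal cells. Of the 33 other immediate early genes 3 were higher and 1 lower over all kept cells (median 0.13), and 4 higher and 2 lower in epithelial cells (median 0.14), shares near those of all genes. Nr4a1, an orphan nuclear receptor, was at 21.8 CPM in EL1 and 58.2 CPM in WTg (1.42) over all kept cells, while Areg, an EGF receptor ligand, had 142 UMIs in EL1 and 1 in WTg. Of the 11 Egr and Klf relatives none was higher and 1 was lower in both sets of cells, Egr3, at 138 and 62.1 CPM over all kept cells (-1.15), beside Klf6 at 194 and 301 CPM (0.63). Of 14 AP-1 and Maf partners Batf and Maf were higher and none lower over all kept cells (median 0.21), whereas in epithelial cells Maf was higher and Batf3 lower (median 0.18).

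Of 24 feedback genes 1 was higher and 3 lower over all kept cells (median -0.09), and none higher and 4 lower in epithelial cells (median -0.37). Dusp4, a MAP kinase phosphatase, was at 11.01 and 2.67 CPM over all kept cells (-2.05), and Socs2, a relative of Socs3, at 38.7 and 11.8 CPM (-1.71). The heat shock list, 13 genes, held no 2-fold difference in either set (medians -0.10 and -0.21), with Hspa1a at 29.9 and 31.2 CPM over all kept cells. Of the 23 SRF and CREB genes Mrtfa was higher over all kept cells and none in epithelial cells (medians -0.21 and -0.23). For the STAT3 genes it was Il10ra of 11 over all kept cells (median 0.04) and none of 9 in epithelial cells (median -0.15), and Lifr, a receptor chain that signals to STAT3, was at 87.2 and 47.5 CPM over all kept cells. Of the 8 stress response genes 3 were higher (Trib3, Chac1, Sesn2) and 1 lower (Atf5) in both sets, with medians of 0.67 and 0.71. Chac1, which breaks down glutathione, was at 4.43 and 35.4 CPM over all kept cells (2.998) and Atf5 at 114 and 54.4 CPM (-1.07).

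Cell quality moved with the levels at its lower end. In epithelial cells with up to 5%, 5 to 10% and 10 to 20% mitochondrial UMIs, the summed members were at 3888, 3787 and 2290 CPM in EL1 and at 3235, 2858 and 2584 CPM in WTg. Barcodes removed for over 20% (393 and 440) had 1513 and 1211 CPM of the members and 2532 and 1802 CPM of the heat shock list, both lower than in kept cells. By depth, cells with 5000 to 20000 UMIs had the highest sum in EL1 (5818 CPM) and those with 20000 to 50000 UMIs in WTg (3492 CPM). The sum was lower in WTg than in EL1 in every bin of depth and in those of mitochondrial share under 10%.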

How the data were processed

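Single-cell RNA was measured with 10x Chromium 3′ v3.1 chemistry in 1 library of EL1 and 1 of WTg. The authors deposited UMI counts per gene and barcode made with Cell Ranger 6.0.2 (matrix header); the submitters' processing notes also name GRCm38, R 4.1 and Seurat 4.0.5. Whether intronic reads were counted is not given in the sources used here. Dense tables of counts, also deposited, served as an alternative.

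The members and gene lists were chosen with earlier results of these data known. The cell filter required 500 genes, 1000 UMIs and no more than 20% mitochondrial UMIs. Cells were clustered with scanpy 1.11.5 (2000 variable genes, 30 components, 15 neighbours, Leiden resolution 1, leidenalg 0.10.2) after 105 member, early, feedback and heat shock genes and the cell cycle lists were left out. A cluster was named when at least 3 markers of a class exceeded the other cells by 1 or more on the log2 scale. The exclusion of cells with 5 or more endothelial or fibroblast markers was set after seeing the data. Scrublet marked 4 cells in each library, fewer than 0.5% of cells, and they were kept.

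Summed UMI counts were divided by all UMIs of those cells and scaled to 1000000 (CPM). Intervals were exact Poisson for levels, exact conditional binomial for ratios and Clopper-Pearson for shares. No difference between the groups could be tested, with 1 library in each. Genes with at least 10 UMIs entered counts past 2-fold. Besides the members, up to 3 genes at each end of every list (at least 50 UMIs) and the genes closest in correlation (a UMI in at least 5% of epithelial cells of both libraries) could be named, and 1 gene that this rule picks is not reported here. Genes named for the cells over 10000 CPM, that level itself and the clusters discussed singly were chosen after values were seen. Alternatives were other filters, TMM scaling (edgeR 4.0.16), equal cell weights, doublets removed, top cells left out, the dense table, other clusterings and other depths. Ratios, intervals and thinning were tested on simulated data.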

Additional observations from a re-analysis of the deposited data

Results flagged for a closer look

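As the clusters were named here, Fos differed between EL1 and WTg in opposite directions in different cell groups. On the log2 scale, WTg over EL1 stood at 1.73 in acinar-like cells, -1.52 in neuroendocrine-like cells and -1.01 in macrophage-like cells, each at least 2-fold. The difference between these ratios was not tested, since each group has 1 library. The acinar-like value rests on 49 Fos UMIs in 41 EL1 cells, and the macrophage-like value on 119 and 115 UMIs. The neuroendocrine-like value sets EL1 cells mostly of cluster 0 against WTg cells mostly of cluster 2. Among cells of cluster 2 below 10000 CPM of the summed members, Fos was at 59.4 CPM in EL1 and 53.0 CPM in WTg. That is a log2 ratio of -0.17 (-0.67 to 0.38). With the EL1 cluster 3, which came closest to the acinar class but had too few markers for the name, the acinar-like ratio turned to -1.46, so the opposite direction depends on that naming.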

How the results depend on the processing

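No member passed a 2-fold difference between the libraries under any alternative, in all kept cells or in epithelial cells. Ratios near 0 and that of Egr4 changed sign. Under TMM scaling, which raised every log2 ratio by 0.13 in all kept cells and 0.18 in epithelial cells, Jun went to 0.0127 and 0.0798 and Egr1 in all kept cells to 0.10. Egr4 went to -0.36 in all kept cells and -0.33 in epithelial cells with each cell weighted equally, to -0.0393 in all kept cells without its top 1% of cells, and to -0.61 and -0.52 without its top 5%. Fos, Klf2, Socs3, Junb, Atf3 and Fosb stayed below 0 under every alternative run, with Fos between -0.92 and -0.43 in epithelial cells. The summed members over all kept cells were at -0.29 with at least 200 genes and any mitochondrial share, -0.14 with TMM, -0.39 with equal weights, -0.31 and -0.34 without the top 1% and 5%, and -0.29 in the dense table. In epithelial cells they were at -0.30 under the stricter filter, -0.10 with TMM, -0.42 with equal weights, -0.32 and -0.355 without the top 1% and 5%, -0.30 and -0.26 at Leiden resolutions 0.5 and 2, and -0.27 with the early genes kept in clustering. The cause of these shifts was not tested. Among acinar-like cells Fos turned from 1.73 to -1.46 when cluster 3 was added, and Egr4 in neuroendocrine-like cells went from 0.58 to 0.16 without the highest Egr4 cell of each library, both chosen after seeing the data. Other alternatives chosen after seeing the data were the top 5% and the following clusters: without the shallow clusters 5 and 9 the sum was at -0.29, without cluster 6 at -0.36, without cluster 3 at -0.17 and with the cells of stromal markers at -0.26. The share of epithelial cells with at least 3 members followed depth, with 29.5% of EL1 and 21.4% of WTg at 1000 UMIs, 88.3% and 76.4% at 5000 UMIs, and 92.3% and 85.2% without thinning, and was lower in WTg each time. No paired analysis was possible because the design holds a single library for EL1 and for WTg, so that nothing was tested. Depth limits Egr2 and Egr4 and all values of immune clusters, where a count of 0 could hide up to 3 UMIs.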
